A study of Rattus norvegicus with 36 samples.

Results

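The microRNA table of this rat aorta study lists 835 small RNAs, of which 576 have a miRBase-type name and the remainder carry only the form miR-n followed by a number. The miR-n rows, 257 with at least 1 read in the libraries analysed and 2 with none, were taken by their names alone, with no measured value used in the choice. Their numbers run from 1 to 299, with 40 numbers not in the table. The meaning of the name and the sequence behind each number have no entry in the labels, the table or the reference used here. Of all miR-n rows, 209 reached a normalized signal of at least 1 in at least 5 libraries and were tested. They stood beside 275 of the 576 named rows, 484 in all. The signal is written nRPM below, for normalized reads per M reads (M for mega). Its scaling was not given, and the columns of the 32 libraries sum to 0.726 to 1.3 M. It is therefore not plain reads per M.

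Small RNA was sequenced from the descending thoracic aorta of male rats on a high-salt diet (HS, 4% NaCl) or a normal-salt diet (NS), given from 4 to 6 weeks until 12 to 13 weeks of age. S2Ba is a congenic strain with Brown Norway (BN) sequence in the distal portion of chromosome 2, S2Bb is a congenic strain with BN sequence in its middle segment, and SS is the Dahl salt-sensitive strain they were set against. The labels do not say where the BN segments begin and end. The groups analysed were S2Ba on HS and on NS (5 libraries each), S2Bb on HS and on NS (6 each) and SS on HS and on NS (5 each), 32 libraries in all. Nothing in the labels says how litters or cages were shared, so the spread between libraries may be partly technical.

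MicroRNAs are short RNAs cut out of hairpin precursors and loaded into Argonaute proteins. There the seed, a short run near the 5′ end, pairs with target messages, which are then repressed. Small RNA sequencing also finds short RNAs with no database name, and programs that predict microRNAs can list them under running numbers. The labels and the table do not say whether the miR-n names were made in that way.

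The libraries held between 2.31 and 42.4 M recovered reads (median 19.4 M), so 3 reads were worth 0.0769 to 0.941 nRPM. SS HS replicate 2 was the shallowest library and stood apart: 35 of 209 tested miR-n rows (16.7%) and 65 of 275 tested named rows (23.6%) had their highest value there. Both smooth muscle markers, miR-143-3p and miR-145-5p, were present, with a summed level of 235884 to 740585 nRPM over the libraries. Each marker in the table for endothelium, blood cells, striated muscle, fat, liver, neurons and epithelium also had reads. In pieces of a vessel, fewer cells of a type and less RNA per cell cannot be told apart. Animal numbers in the titles are lower on NS than on HS in SS and S2Ba, so number order and diet cannot be told apart in these strains.

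Of the miR-n rows, 4 carry the counts of a named microRNA, equal or nearly so, and 3 keep a nearly fixed ratio to one at a far lower level. Neither relation gives the sequence of a miR-n row, and the partners are shown to say what these rows follow. The following mature sequences are those of the 6 partners found in the RefSeq annotation of GRCr8, of 7 partners in all, with the seed (bases 2 to 8) in capitals. The partner of miR-n146 is listed first, then those of miR-n282 and miR-n178, all matched in counts. The partners of miR-n154, miR-n74 and miR-n80, which are matched in ratio, come after them.
miR-378a-3p: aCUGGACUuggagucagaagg
miR-450a-5p: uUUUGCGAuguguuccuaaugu
miR-192-5p: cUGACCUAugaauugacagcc
miR-143-3p: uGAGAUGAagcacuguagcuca
miR-28-3p: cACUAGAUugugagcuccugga
miR-27b-3p: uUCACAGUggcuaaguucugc

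All 6 seeds differ, so the partners do not form a seed family. In GRCr8 the mature miR-378a-3p lies at chr18:57128925-57128945 and miR-143-3p at chr18:57371373-57371394, both on the minus strand. miR-450a-5p lies at chrX:137720985-137721006 on the minus strand, and miR-192-5p at chr1:212994232-212994252 on the plus strand. miR-28-3p lies at chr11:89480263-89480284 and miR-27b-3p at chr17:1819163-1819183, both on the minus strand. None of these 6 lies on chromosome 2, where the congenic strains carry BN sequence. The remaining partner, of miR-n168, is miR-1843-5p.

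In 5 pairs the rows were equal in every library to the last read, counting the named partners. miR-n146 equalled miR-378a-3p, a microRNA processed from an intron of Ppargc1b in mouse and human, with 731354 reads over the 32 libraries under each name. miR-n282 equalled miR-450a-5p, a member of the X-linked cluster with miR-322 and miR-503, with 18117 reads. Among miR-n rows themselves, miR-n33 equalled miR-n73 (104515 reads), miR-n193 equalled miR-n279 (51961 reads) and miR-n108 equalled miR-n210 (6346 reads). The members of such a pair are therefore 1 observation each.

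A further 5 pairs differed by at most 10% or 3 reads in every library. miR-n178 held 97.3 to 99.4% of the reads of miR-192-5p, a microRNA abundant in liver, kidney and gut, and never the same number. miR-n168 held 98.4 to 100% of the reads of miR-1843-5p. miR-n245, miR-n256 and miR-n289 were nearly equal to each other, with the largest gap, 7.15%, between miR-n245 and miR-n289. In all, 13 miR-n rows belong to an identical or nearly identical pair and 4 of them match a named row. Counting each set once leaves 250 miR-n rows, and the 9 repeated rows hold 14.4% of the miR-n signal. A tolerance of 5% gave 8 such pairs and one of 20% gave 11.

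Other rows kept a nearly fixed ratio to a partner rather than an equal count. miR-n154 stood at 0.1% of miR-143-3p, the dominant microRNA of smooth muscle, and its share ran from 0.087 to 0.113% over the libraries. miR-n80 stood at 0.101% of miR-27b-3p, which is clustered with miR-23b and miR-24, with a range of 0.0833 to 0.118%. miR-n74 stood at 2.41% of miR-28-3p, encoded in an intron of Lpp, with a range of 2.2 to 2.79%. The first 2 ratios are near 1 read in 1000 and the last is larger. Between miR-n rows, miR-n260 stood at 74.7% of miR-n266, with a range of 67.7 to 89.5%. miR-n67 stood at 1791% of miR-n91, with a range of 1397 to 2200%. Whether reads of 1 RNA were counted under both names was not tested.

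**Figure D1:**
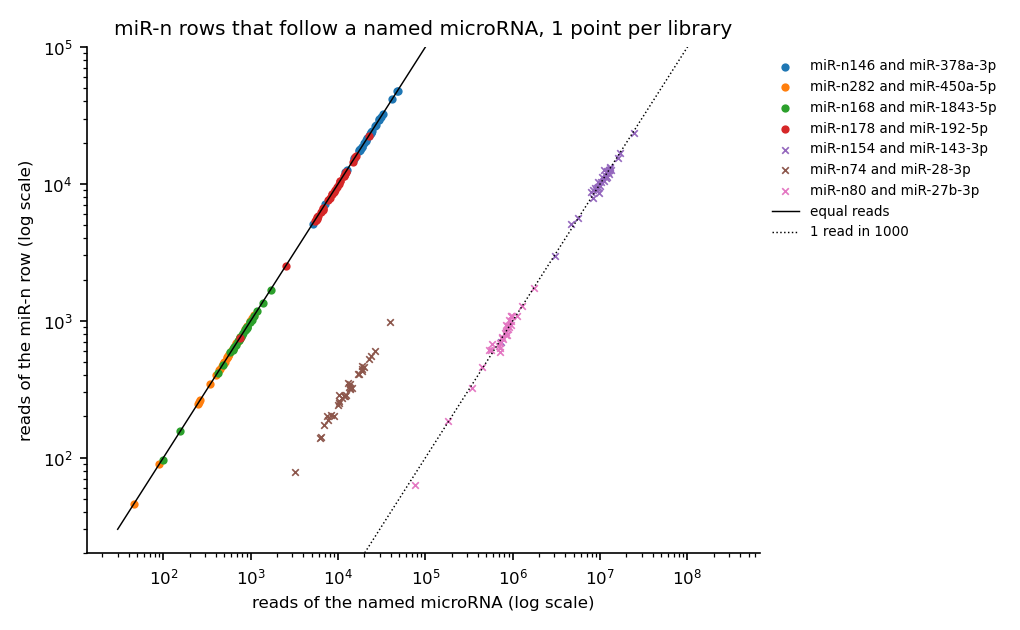
Reads of 7 miR-n rows (vertical axis, log scale) against the reads of the named microRNA each follows (horizontal axis, log scale), 1 point for each of the 32 libraries. Filled points lie on the solid line of equal reads, and crosses for miR-n154 and miR-n80 lie along the dotted line of 1 read in 1000, with miR-n74 between the lines at 2.41% of miR-28-3p.

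The miR-n rows were a small part of the aortic small RNA signal, and a few rows made up most of it. Together they held 1.44% of the signal, with 1.09 to 2.75% in single libraries and a median of 1.38%. Lengths are not known for these rows, so levels are per row and not per length. miR-n240 alone averaged 7695 nRPM, which is 52.3% of the miR-n signal and rank 14 of the whole table. Without it the median share fell to 0.637%. It was followed by miR-n146 at 1224, miR-n143 at 905, miR-n21 at 606 and miR-n226 at 561 nRPM. Then came miR-n154 at 552, miR-n67 at 494 and miR-n178 at 458 nRPM, miR-n239 with group medians of 185 to 395 nRPM, and miR-n33 and miR-n73 at 172 nRPM each. Of these, miR-n146, miR-n178 and miR-n154 follow a named microRNA as described above.

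The 11 rows with a mean of at least 100 nRPM held 89% of the miR-n signal. Another 37 rows averaged 10 to 100 nRPM, 120 averaged 1 to 10 nRPM and 91 stayed under 1 nRPM, 41 of which were still tested. The median row mean was 1.72 nRPM for miR-n rows and 0.46 nRPM for named rows. Reads were present in every library for 130 miR-n rows and in none for 2. Libraries of 1 group differed by a median SD of 0.35 (log2) in the highest class of miR-n rows, 0.412 in the middle class and 0.471 at 1 to 10 nRPM. The same medians for named rows were 0.304, 0.377 and 0.343, a description with no test.

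**Figure D2:**
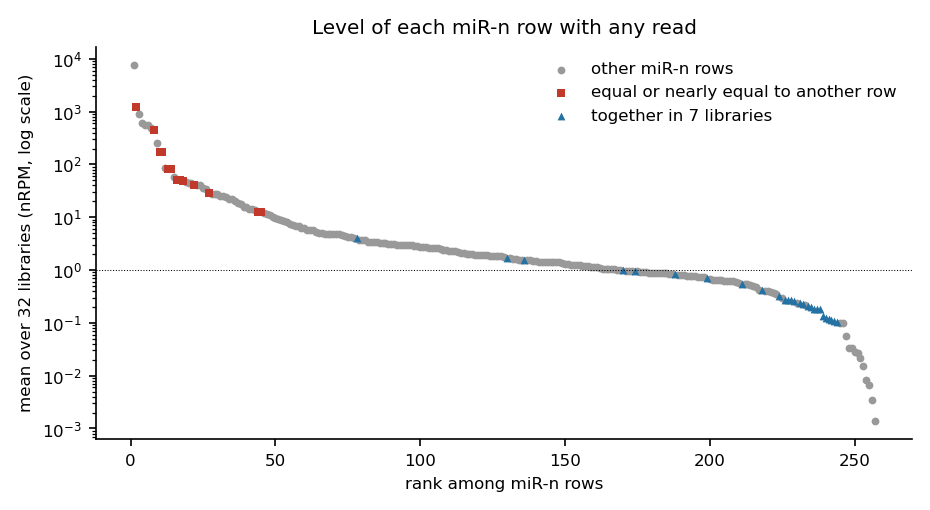
Mean level over the 32 libraries (nRPM, vertical log axis) of the 257 miR-n rows with any read, ranked from the most to the least abundant. Red squares mark the 13 rows equal or nearly equal to another row, blue triangles the 27 rows that occur together in 7 libraries, and the dotted line 1 nRPM; the squares lie above 10 nRPM and most triangles below 1 nRPM.

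The most abundant rows were present in each library of the 6 groups. miR-n240 had medians of 5738, 7695 and 8076 nRPM on HS in S2Ba, S2Bb and SS, and of 8005, 8193 and 7940 nRPM on NS in the same order of strains. Its lowest library was SS HS replicate 2 with 2893 nRPM, while the other libraries of that group lay between 7767 and 8313 nRPM. miR-n143 had medians of 804, 919 and 840 nRPM on HS in S2Ba, S2Bb and SS, and of 747, 985 and 1163 nRPM on NS. In the order of the group medians, neighbouring groups overlapped in their ranges for both rows. After group means were taken off, miR-n240 was most like miR-n239 (r = 0.84 over 32 libraries) and miR-n143 most like let-7a-5p (r = 0.80), a member of the let-7 family.

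The residuals of other rows, with group means taken off, also followed each other over the 32 libraries. Depth is common to all rows of a library, and SS HS replicate 2, the shallowest, was kept. Its part in these r values was not tested. miR-n154 was most like miR-143-3p (r = 0.97), miR-n67 like miR-n91 (0.95), miR-n226 like miR-n278 (0.86) and miR-n181 like miR-n163 (0.89). miR-n239 was most like miR-n240 and then miR-143-3p (0.83). miR-n288 was most like miR-328a-3p (0.73), and miR-n5 like miR-n55 (0.77). For miR-n156, miR-n144 and miR-n68 no row of the table reached an r of 0.70.

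miR-n21 and miR-n102 were the rows with a mean of at least 1 nRPM of which 1 library held most of the sum. SS NS replicate 6 held 79.1% of the sum of miR-n21. In S2Ba, miR-n21 ran from 18.8 to 76 nRPM on HS and from 39.1 to 126 nRPM on NS. In S2Bb it ran from 14.4 to 99.2 nRPM on HS and from 17.7 to 84.9 nRPM on NS. The values in SS were 47.9, 21.3, 71.6, 18.1 and 25.2 nRPM on HS, and 19.7, 46.4, 749, 1893 and 15343 nRPM on NS. So 3 of 5 SS NS libraries were far above each SS HS library, while the lowest SS NS library lay within the HS range. The congenic strains had no library near the 3 high SS libraries. The share of all miR-n rows in SS NS replicate 6, 2.75% of its signal, stood out with miR-n21, and the highest share of any library was 1.71% with miR-n21 left out. Its most like row was miR-n114 (r = 0.72), whose highest library was again SS NS replicate 6, with 21.3% of the sum.

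A group of 27 miR-n rows was nearly confined to 7 libraries. It was found by a rule chosen after the values were seen, so its numbers are a description with no test. The 7 libraries are those in which miR-n102 had at least 10 reads, namely S2Bb HS replicates 4 and 6, S2Bb NS replicates 2, 3, 5 and 6 and SS NS replicate 2. Rows with at least 80% of their signal in these libraries were counted among rows with at least 20 reads. That held for 27 of 248 miR-n rows and for 0 of 447 named rows, whose highest share was 45.9% (miR-135a-5p) and whose median share was 21%. Just inside the limit were miR-n95 (87.3%), miR-n105 (85.8%) and miR-n125 (81.6%), and just outside it was miR-n28 (75.8%).

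These 27 rows had 213 to 2687 reads per library in the 7 libraries and 0 to 116 reads, with a median of 4, in the other 25. In 9 of those 25 libraries none of the 27 rows had a read, and 8 of the rows had no read in any of the 25. miR-n102 was the most abundant, with 874 reads (79.2 nRPM) in SS NS replicate 2, 571 reads in S2Bb NS replicate 6, and at least 1 read in 10 of 32 libraries. Its most like rows were miR-n39 (r = 0.98), miR-n6 (0.97) and miR-n50 (0.93). The rows did not keep 1 ratio: miR-n102 and miR-n125 had 874 and 22 reads in SS NS replicate 2, but 133 and 206 reads in S2Bb HS replicate 6. The 7 libraries came from 3 of the 6 groups, 2 from S2Bb HS, 4 from S2Bb NS and 1 from SS NS, and the other libraries of these 3 groups had 0 to 116 such reads. Of the 27 rows 8 were tested. Among these, miR-n6 had reads in 2 of the other 25 libraries, miR-n102 and miR-n126 in 3 and miR-n48 in 4. These rows passed the filter of 5 libraries only with the 7. No batch or date is given in the labels, and the origin of these reads was not tested.

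**Figure D3:**
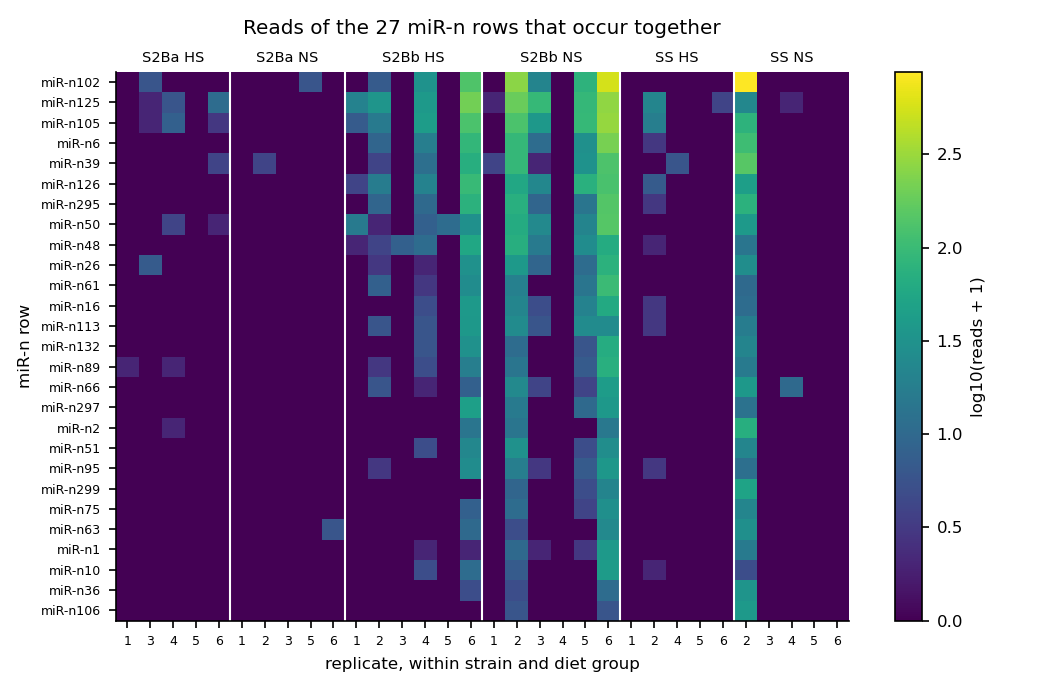
Reads of the 27 co-occurring miR-n rows (rows of the map, most abundant on top) in each of the 32 libraries (columns, grouped by strain and diet and numbered by replicate), as the colour of log10(reads + 1). SS NS replicate 2 and S2Bb NS replicates 2 and 6 are bright over nearly the whole list, with 1833, 1291 and 2687 reads, while libraries such as SS HS replicate 1 and S2Bb NS replicate 4 have 0.

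High salt was first compared with normal salt within each strain, which asks how diet changes the aortic small RNAs on each genetic background. A row is called when limma's test on log2(nRPM + 1) gives a Benjamini-Hochberg adjusted p under 0.05 over all 484 rows. Differences are HS minus NS on that scale with their SE, and the scale understates changes of rare rows.

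In SS, miR-n144 and miR-n21 were lower on high salt. miR-n144 had 6.25, 2.82, 7.74, 5.21 and 4.13 nRPM on HS, and 14.9, 7.76, 11.5, 11.5 and 10.2 nRPM on NS. Each HS library lay below each NS library, though the nearest values, 7.74 and 7.76, almost met. Its log2 difference was -1.0 ± 0.23 (adjusted p = 0.0308). For miR-n21, whose values are given above, it was -3.81 ± 0.98 (adjusted p = 0.0481), and the diets overlapped. These 2 calls are 0.957% of the 209 miR-n rows tested, beside 1.03% of all 484 rows (0.62% were lower and called), and the median difference was -0.11 in miR-n rows and -0.02 in all rows.

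limma called no miR-n row in SS without HS replicate 1, 2, 5 or 6 or without NS replicate 4, called 1 without NS replicate 2, 4 without NS replicate 3 and 5 without HS replicate 4. With each library scaled to its total reads there was also no call, and that scaling moved the median difference of all rows by 0.14. In the authors' scaling 35 miR-n rows had an unadjusted p under 0.05, 16.7% of those tested, beside 18.6% of all rows. On recovered reads edgeR called 1 miR-n row, 0.478%, beside 0.826% of all rows, and DESeq2 called 4, 1.92%, beside 2.69% of all rows.

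In S2Ba, miR-n156 was higher on high salt, an abundant row with 50524 reads over the libraries and no matching row. It had 155, 114, 126, 93.7 and 119 nRPM on HS, and 74.1, 49.2, 76.7, 60.5 and 63.6 nRPM on NS, with no overlap. The means were 122 ± 22.2 (SD, n = 5) on HS and 64.8 ± 11.1 (SD, n = 5) on NS, and the log2 difference was 0.90 ± 0.19 (adjusted p = 0.0147). This was 1 call in 209 miR-n rows, 0.478%, beside 0.826% of all rows, and the median difference was 0.00 in miR-n rows and 0.01 in all rows. The call was lost without HS replicate 1, 3 or 4, without NS replicate 2 or 5 and under total-read scaling (adjusted p = 0.152). DESeq2 on recovered reads called 6 miR-n rows in S2Ba, 2.88%, beside 2.9% of all rows. Without HS replicate 5 there were 3 calls and without NS replicate 1 there were 2.

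In S2Bb, 6 miR-n rows changed, 2 higher and 4 lower on high salt. miR-n156 was higher again, with 58.9 to 114 nRPM and a median of 89.3 on HS, and 47.6 to 62.7 nRPM and a median of 56.1 on NS. The ranges overlapped because HS replicate 6 lay within the NS range. The log2 difference was 0.62 ± 0.18 (adjusted p = 0.0310). miR-n68 had 3.86 to 15 nRPM with a median of 7.18 on HS, and 1.64 to 6 nRPM with a median of 2.55 on NS. Its log2 difference was 1.14 ± 0.35 (adjusted p = 0.0408), again with overlapping ranges.

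The lower rows in S2Bb included the proportional pair miR-n266 and miR-n260. miR-n266 had 43.9, 47.5, 43, 45.8, 49.3 and 36.5 nRPM on HS, and 68.5, 59, 62.3, 83, 111 and 63.6 nRPM on NS. miR-n260 had 34.6, 38.2, 33.3, 34.5, 33.4 and 30.7 nRPM on HS, and 49.5, 48, 45.7, 62.6, 77 and 47.2 nRPM on NS. For both rows each HS library lay below each NS library, and NS replicate 5 was the highest. The log2 differences were -0.71 ± 0.18 for miR-n266 (adjusted p = 0.0127) and -0.65 ± 0.16 for miR-n260 (adjusted p = 0.0122). Since the pair keeps a nearly fixed ratio, these may not be separate observations.

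miR-n220 and miR-n178 were the other lower rows. miR-n220 had 3.92 to 7.35 nRPM with a median of 5.31 on HS, and 4.95 to 19.2 nRPM with a median of 9.62 on NS. Its log2 difference was -0.73 ± 0.22 (adjusted p = 0.0403), and after group means were taken off it was most like miR-n253 and miR-n266 (r = 0.82 each) and then miR-195-5p (0.72). miR-n178, the near copy of miR-192-5p, had 307 to 479 nRPM with a median of 359 on HS, and 463 to 635 nRPM with a median of 598 on NS. Its log2 difference was -0.65 ± 0.17 (adjusted p = 0.0167), with 1 HS library above the lowest NS library, and it repeats the result of miR-192-5p.

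These 6 calls are 2.87% of the miR-n rows tested, beside 5.99% of all rows (2.48% higher and 3.51% lower), and 8.36% of named rows were called. The median difference was 0.05 in miR-n rows and 0.03 in all rows. Only 2 calls remained in number without NS replicate 5, and 3 without HS replicate 1, 2, 3 or 4. The call of miR-n260 held in 12 of 12 fits without 1 library, that of miR-n266 was lost without NS replicate 5, and that of miR-n178 was lost without HS replicate 2. The call of miR-n156 was lost without HS replicate 1, 3 or 4 or NS replicate 2 or 5. miR-n220 and miR-n68 held in 3 of 12 such fits each, miR-n220 without HS replicate 5 or NS replicate 2 or 4 and miR-n68 without HS replicate 6 or NS replicate 1 or 4. Under total-read scaling no miR-n row was called in S2Bb, beside 2.48% of all rows. On recovered reads edgeR called 8, which is 3.83% of the miR-n rows, beside 7.23% of all rows, and DESeq2 called 10, which is 4.81%, beside 8.49% of all rows. An unadjusted p under 0.05 was found for 9.57% of miR-n rows, beside 15.9% of all rows. Medians of some marker lists differed between the diets in S2Bb, all with overlapping ranges and without a test. Both endothelial markers summed to 2237 to 3259 nRPM on HS and to 1429 to 2691 on NS. The 5 white blood cell markers in the table, of 6 listed, summed to 274 to 334 on HS and to 195 to 322 on NS. The 4 neuronal markers summed to 54.7 to 88 on HS and to 39.5 to 64.7 on NS. Both red blood cell markers summed to 2.26 to 13.4 on HS and to 5.66 to 65.6 on NS. The 3 liver markers summed to 336 to 510 on HS and to 502 to 665 on NS. They include miR-192-5p (mean 465 nRPM), so their sum (median 495 over all libraries) largely repeats miR-n178. Both smooth muscle markers summed to 444430 to 659243 on HS (median 580433) and to 506711 to 740585 on NS (median 636971). Summed medians on HS and NS were 634 and 612 for striated muscle, 1415 and 1308 for fat, and 34.7 and 33.8 for epithelium. The part of these cells in these calls was not tested.

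**Figure D4:**
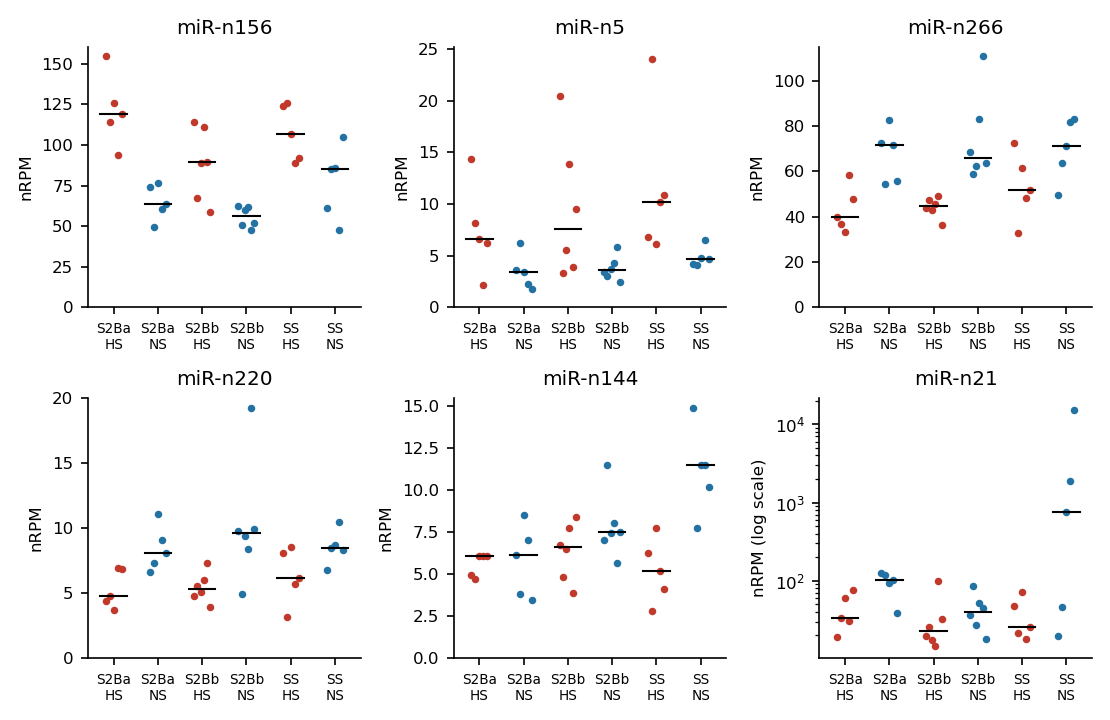
Levels of 6 miR-n rows (nRPM on the vertical axes, a log axis for miR-n21) in each library of the 6 strain and diet groups, red for HS and blue for NS, with a bar at the group median. miR-n156 on HS lies above NS in S2Ba without overlap, miR-n266 on HS lies below NS in S2Bb without overlap, and 3 SS NS libraries of miR-n21 reach 749 to 15343 nRPM.

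Averaged over the 3 strains with equal weight, which uses all 32 libraries, 23 miR-n rows changed, 8 higher and 15 lower on HS. That is 11% of the miR-n rows tested, beside 13.4% of all rows (7.64% higher and 5.79% lower) and 15.3% of named rows. The median difference was -0.04 in miR-n rows and -0.02 in all rows. Under total-read scaling 14 rows were higher and 8 lower, so the split between directions depends on the scaling. These are 10.5% of the miR-n rows tested, beside 12.6% of all rows. Of the 23 rows, 22 had 1 sign in the 3 strains, a count that the choice by the average favours, and miR-n144 had a difference of 0.00 in S2Ba. The log2 differences of the higher rows ran from 0.30 to 0.91, and those of the lower rows from -0.30 to -1.82. Means under 10 nRPM were found for 14 of the 23 rows, and 21 calls, 7 higher and 14 lower, were made with repeated rows left out.

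Among the higher rows with a mean of at least 10 nRPM, miR-n156 had the largest number of reads. Over all strains it had 58.9 to 155 nRPM with a median of 109 on HS, and 47.6 to 105 nRPM with a median of 61.3 on NS. Its log2 difference was 0.68 ± 0.11 (adjusted p = 0.000115), made of 0.90 in S2Ba, 0.62 in S2Bb and 0.52 in SS. The identical rows miR-n108 and miR-n210 had 2.85 to 101 nRPM with a median of 12.4 on HS, and 2.12 to 16.4 nRPM with a median of 5.79 on NS. Their log2 difference was 0.90 ± 0.30 (adjusted p = 0.0432), and the highest value was that of the shallowest library. miR-n288 had 25 to 65.5 nRPM with a median of 40 on HS, and 22.4 to 40 nRPM with a median of 31.7 on NS, a difference of 0.30 ± 0.10 (adjusted p = 0.0432).

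Among the lower rows at that level, miR-n266 and miR-n260 moved alike. miR-n266 had 32.9 to 72.4 nRPM with a median of 46.6 on HS, and 49.7 to 111 nRPM with a median of 70 on NS. Its log2 difference was -0.59 ± 0.11 (adjusted p = 0.00047), and that of miR-n260 was -0.50 ± 0.10 (adjusted p = 0.000689). miR-n178 had 234 to 486 nRPM with a median of 376 on HS, and 359 to 767 nRPM with a median of 529 on NS. Its difference was -0.46 ± 0.10 (adjusted p = 0.00301), the smallest part of it, -0.20, in S2Ba. miR-192-5p averaged 465 nRPM, beside a median of 495 for the summed liver markers over all libraries, so that sum largely repeats miR-n178. Medians of the liver sum were lower on HS in each strain. They were 520 nRPM on HS and 558 on NS in S2Ba, 393 and 635 in S2Bb, and 389 and 455 in SS. The endothelial sum had higher medians on HS in each strain, with 2813 nRPM on HS and 2717 on NS in S2Ba, 2799 and 1569 in S2Bb, and 2384 and 2033 in SS. The 6 striated muscle markers did as well, with 533 nRPM on HS and 490 on NS in S2Ba, 634 and 612 in S2Bb, and 667 and 616 in SS. The smooth muscle sum had lower medians on HS in each strain. It stood at 531707 nRPM on HS and 532509 on NS in S2Ba, 580433 and 636971 in S2Bb, and 589527 and 593373 in SS. The part of these cells in the averages over strains was not tested. miR-n181 had 9.4 to 32 nRPM with a median of 23 on HS, and 18.3 to 69 nRPM with a median of 26.2 on NS. Its difference was -0.51 ± 0.17 (adjusted p = 0.0432). For miR-n21 the average was -1.82 ± 0.55 (adjusted p = 0.0264), made of -1.17 in S2Ba, -0.49 in S2Bb and -3.81 in SS. In each of these rows the ranges of the diets overlapped once all strains were put together.

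Rarer rows were named after their values were seen, because their calls held in each alternative and in each fit without 1 library. miR-n5 had 2.15 to 24.1 nRPM with a median of 7.48 on HS, and 1.77 to 6.55 nRPM with a median of 3.88 on NS, a difference of 0.91 ± 0.22 (adjusted p = 0.00526). It was alike in the strains, with 0.84 in S2Ba, 0.92 in S2Bb and 0.97 in SS. miR-n220 fell by 0.58 (adjusted p = 0.00374) and its most like row miR-n253 fell by 0.51 (adjusted p = 0.00631). miR-n162 was higher by 0.60 (adjusted p = 0.0152) and miR-n258 by 0.73 (adjusted p = 0.0206). With miR-n156, miR-n178, miR-n260 and miR-n266 these make 9 rows whose average call held under each alternative and library left out that tested them.

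SS HS replicate 2, the shallowest library, held the highest value of miR-n5, miR-n55, miR-n108, miR-n162, miR-n258 and miR-n288. Without it miR-n5 differed by 0.81 (adjusted p = 0.00755), miR-n162 by 0.51 (adjusted p = 0.0182) and miR-n258 by 0.61 (adjusted p = 0.0264). miR-n55 differed by 0.61 without it (adjusted p = 0.0362), against 0.81 with it. Other calls were lost without it, though the differences kept their sign. The copies miR-n108 and miR-n210 differed by 0.71 without it (adjusted p = 0.0614), against 0.90 with it, and miR-n288 by 0.24 (adjusted p = 0.0511), against 0.30. miR-n181 differed by -0.45 without it (adjusted p = 0.0643), against -0.51 with it. The values were -0.35 against -0.41 for miR-n112 and -0.43 against -0.47 for miR-n198 (adjusted p = 0.0661 each without it). Without S2Ba NS replicate 3 or without S2Ba NS replicate 6 there were 15 calls in place of 23.

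**Figure D5:**
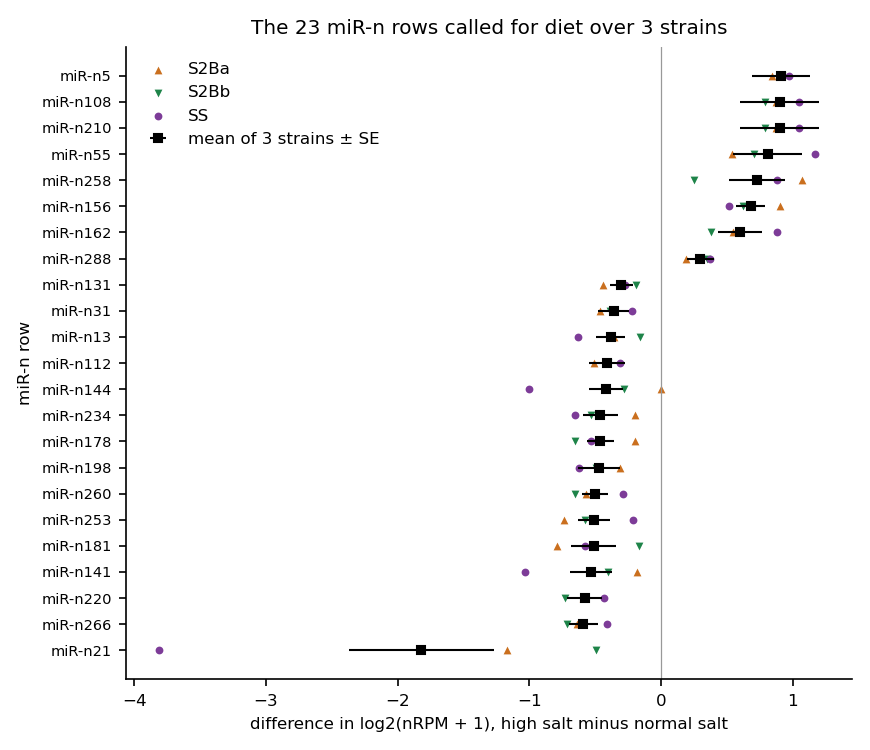
Difference in log2(nRPM + 1), HS minus NS, of the 23 miR-n rows called in the average over strains (rows), with a symbol for each strain and a black square for the average with its SE as the bar. The 8 higher rows lie between 0.30 and 0.91 and the 15 lower rows between -0.30 and -1.82, where miR-n21 is set by SS at -3.81.

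The congenic strains were then compared with SS on each diet, which asks whether BN sequence on chromosome 2 changes the small RNAs. No miR-n row was called by limma in these 4 comparisons. For S2Ba against SS on NS, limma called 0.413% of all rows, and 28 miR-n rows had an unadjusted p under 0.05, 13.4% of those tested, beside 15.1% of all rows. There edgeR called 1 miR-n row, 0.478%, beside 0.62% of all rows, and DESeq2 8, which is 3.85% of the miR-n rows, beside 3.73% of all rows. The smallest p values were those of miR-n144, miR-n143 and miR-n291. miR-n144 averaged 5.81 ± 2.15 (SD, n = 5) nRPM in S2Ba and 11.2 ± 2.57 (SD, n = 5) nRPM in SS, a log2 difference of -0.87 ± 0.23 (adjusted p = 0.0736). miR-n143 averaged 777 ± 92.3 nRPM in S2Ba and 1143 ± 169 nRPM in SS (adjusted p = 0.102), and miR-n291 averaged 1.79 ± 0.776 nRPM in S2Ba and 0.499 ± 0.525 nRPM in SS (adjusted p = 0.152). In SS on NS 3 reads were worth 0.189 to 0.464 nRPM, so miR-n291 was near that floor there. The S2Ba range of miR-n143, 686 to 886 nRPM, lay wholly below the SS range of 917 to 1368 nRPM. There was 1 call without S2Ba NS replicate 3 and there were 2 without SS NS replicate 3. Total-read scaling moved the median difference of all rows by 0.17 in this comparison.

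For S2Bb against SS on NS, limma called 0.826% of all rows, and 11 miR-n rows had an unadjusted p under 0.05, 5.26% of those tested, beside 11% of all rows. Among these were miR-n125 (limma, unadjusted p = 0.01), miR-n28 (0.011) and miR-n48 (0.021). miR-n125 and miR-n48 belong to the 27 rows nearly confined to 7 libraries, 4 of which are S2Bb NS. miR-n28, just outside those 27, had 75.8% of its signal in the same 7 libraries. Such p values follow from which libraries these 7 are, so they do not show a strain difference. miR-n48 had reads in only 4 of the other 25 libraries, so it passed the filter of 5 libraries only with those 7. In this comparison edgeR called 1 miR-n row, 0.478%, beside 1.03% of all rows, and DESeq2 2, 0.962%, beside 2.28% of all rows. miR-n21 came nearest, with a log2 difference of -3.54 ± 0.94 (adjusted p = 0.0659), a median of 40.4 nRPM in S2Bb and of 749 nRPM in SS. miR-n68 averaged 3.15 ± 1.6 nRPM (SD, n = 6) in S2Bb and 9.47 ± 7.38 nRPM (SD, n = 5) in SS (adjusted p = 0.132), with overlapping ranges. miR-n13 averaged 1.74 ± 0.558 nRPM in S2Bb and 3.14 ± 0.854 nRPM in SS (adjusted p = 0.132). Leaving out SS NS replicate 2 or SS NS replicate 3 gave 1 call.

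For S2Ba against SS on HS, limma called 0.207% of all rows, and 17 miR-n rows had an unadjusted p under 0.05, 8.13% of those tested, beside 16.9% of all rows. There edgeR called 0 miR-n rows, beside 0.207% of all rows. DESeq2 called 3 of the 114 miR-n rows to which it gave an adjusted p, 2.63%, beside 9.01% of all such rows. The smallest p values were those of miR-n87 (log2 difference -0.94, adjusted p = 0.0846), miR-n24 (1.07, adjusted p = 0.0957) and miR-n136 (1.07, adjusted p = 0.0957). miR-n24 averaged only 0.87 nRPM over the 32 libraries, and 3 reads were worth 0.941 nRPM in SS HS replicate 2. miR-n87 ran from 3.39 to 11.2 nRPM in S2Ba and from 11.6 to 33.6 nRPM in SS, with no overlap. There was 1 call without SS HS replicate 1 and there were 3 without S2Ba HS replicate 5. For S2Bb against SS on HS, limma called 0% of all rows, and 13 miR-n rows had an unadjusted p under 0.05, 6.22% of those tested, beside 11.6% of all rows. Neither edgeR nor DESeq2 called any row there, and DESeq2 gave an adjusted p to 43 miR-n rows. The smallest p values there were those of miR-n215 (0.60), miR-n49 (-0.75) and miR-n20 (-0.85), each with an adjusted p of 0.3. The median difference was 0.18 in miR-n rows and 0.04 in all rows. Both congenic strains were set against the same SS libraries.

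Whether the diet response differed between strains was tested as the difference of the 2 diet responses. No miR-n row was called by limma for S2Ba minus SS, beside 0% of all rows, or for S2Bb minus SS, beside 0.413% of all rows. For S2Ba minus SS, 13 miR-n rows had an unadjusted p under 0.05, 6.22% of those tested, beside 7.44% of all rows, and edgeR called 0 rows. DESeq2 called 3 miR-n rows, 1.44%, beside 0.621% of all rows, and no named row. For S2Bb minus SS, 12 miR-n rows had an unadjusted p under 0.05, 5.74% of those tested, beside 9.5% of all rows. There edgeR called 1 miR-n row, 0.478%, beside 0.62% of all rows. DESeq2 called 2, which is 1.85% of the miR-n rows to which it gave an adjusted p, beside 2.17% of all such rows. miR-n144 came first for S2Ba, with a response higher by 1.00 ± 0.32 than in SS (adjusted p = 0.62), followed by miR-n215 (0.89) and miR-n261 (1.29). For S2Bb the first rows were miR-n142 (-0.55), miR-n21 (3.32 ± 1.33) and miR-n7 (0.70), each with an adjusted p of 0.487. miR-n142 and miR-n7 averaged only 0.775 and 0.79 nRPM over the 32 libraries, and 3 reads were worth 0.941 nRPM in SS HS replicate 2. The calls of miR-n144 and miR-n21 in SS, and their absence in the congenic strains, are therefore not shown to be a difference between strains.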

How the data were processed

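Values are a normalized linear signal, deposited by the authors as a table with 34 library columns and written here as nRPM. STAR 2.3.1, edgeR 3.6.8, bcl2fastq 1.8.4, R 3.2.3 and FastQC were used, per the submitters' processing notes. Build, annotation, counting and scaling were not given in the sources used here. Each column's values were whole multiples of 1 step (tolerance 1e-06), which gave the reads. The labels describe 36 samples. SS HS replicate 3 and S2Ba HS replicate 2 have no library column, so they were not analysed here. The columns of SS NS replicate 1 and S2Ba NS replicate 4 were identical in 100% of rows, and both were left out.

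Rows at 1 nRPM or more in 5 or more libraries were fitted as log2(nRPM + 1) with limma 3.58.1 (R 4.3.3), 6 groups in 1 model with a variance trend, and Benjamini-Hochberg adjustment over 484 rows. A call is an adjusted p under 0.05. Alternatives were a pseudocount of 0.5, no filter, total-read and RLE scaling, edgeR 4.0.16 and DESeq2 1.42.0 on the recovered reads, the compared groups alone, the identical library counted in either group, each library left out, and repeated rows left out (chosen after seeing the data). The fit was tested on simulated data.

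Named rows are each call (above 20 calls, the 10 largest changes in each direction with a mean of at least 10 nRPM), the 3 smallest p values where there is none, the 10 most abundant rows, matching rows, rows with most of their sum in 1 library, and up to 3 rows with a residual r of at least 0.7. Members, lists and rules were chosen with earlier results of these data known.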

Additional observations from a re-analysis of the deposited data

Results flagged for a closer look

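In 125 groups of 5 or 6 libraries, covering 20 miR-n rows and their share of the signal, 14 groups had a library whose gap to the nearest other library was large beside the range of its group. Chance gives about 1 in 20 such groups for rows named without regard to single libraries. miR-n21 and miR-n102 were named because 1 library held most of their sum, so this rate does not apply to them. Nor does it apply to the share, which miR-n21 raised in SS NS replicate 6. The 14 groups include those of miR-n21, miR-n102 and the share, so 14 of 125 cannot be set against 1 in 20. An excess over chance is therefore not shown. SS HS replicate 2, the shallowest library, had such a gap for 4 rows. These were miR-n108 with 101 nRPM (the others 8.66 to 14.9) and miR-n146 with 1604 (872 to 990). The other rows were miR-n240 with 2893 (7767 to 8313) and miR-n288 with 65.5 (28 to 38.7). SS NS replicate 6 stood out for miR-n21 with 15343 nRPM (19.7 to 1893) and for the miR-n share with 2.75% (1.33 to 1.58%).

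miR-n102 stood out in SS NS replicate 2 with 79.2 nRPM and in S2Bb HS replicate 6 with 7.67 nRPM (the others 0 to 1.56). It also did in S2Ba HS replicate 3 with 0.297 nRPM and in S2Ba NS replicate 5 with 0.21 nRPM, which are 5 reads each in groups otherwise at 0. The other such libraries were S2Bb HS replicate 5 for miR-n21 with 99.2 nRPM (14.4 to 32.8), S2Bb HS replicate 1 for miR-n154 with 455 (587 to 646), S2Bb NS replicate 5 for miR-n220 with 19.2 (4.95 to 9.93) and S2Ba NS replicate 3 for miR-n288 with 32.9 (38.9 to 40).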

How the results depend on the processing

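Counts of called miR-n rows moved by over 1.5 times as follows. For diet in SS (2 calls) there was 1 without a filter, 1 with edgeR, 4 with DESeq2, and 0 with total-read scaling, with the compared groups alone or with the identical library counted as S2Ba. For diet in S2Ba (1 call) and S2Bb (6 calls), total-read scaling gave 0 in each and DESeq2 gave 6 and 10. The average over strains (23 calls) gave 13 without a filter. For S2Ba against SS on NS (0 calls) edgeR and the identical library counted as SS gave 1 each and DESeq2 8, and on HS (0 calls) DESeq2 gave 3. For S2Bb against SS on NS (0 calls) edgeR gave 1 and DESeq2 2. For the responses relative to SS (0 calls), DESeq2 gave 3 for S2Ba and 2 for S2Bb, and edgeR 1 for S2Bb. The cause was not tested. Shares over all rows are not given for fits without a filter, with the compared groups alone or with the identical library counted. Nor are they given with repeated rows or 1 library left out. Those counts therefore do not say whether miR-n rows differ from the whole table.

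With 1 library left out, calls ranged from 0 to 5 for diet in SS, 0 to 3 in S2Ba, 2 to 9 in S2Bb and 15 to 25 in the average. They ranged from 0 to 2 for S2Ba and 0 to 1 for S2Bb against SS on NS, 0 to 3 for S2Ba and 0 to 0 for S2Bb on HS, and 0 to 0 for both responses. Of 32 calls of single rows, 15 held in each fit without a library, 9 under each alternative tested, and none changed sign. The share without miR-n240 was 0.637%. No paired analysis was possible because the titles give animal numbers, not replicate numbers shared between groups. Depth limits rows near 3 reads, worth up to 0.941 nRPM in the shallowest library.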
